A study of Mus musculus with 4 samples.

Results

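Gpr83, Izumo1r, Nrp1 and Lrrc32 encode surface proteins that mark regulatory T (Treg) cells besides the interleukin-2 receptor chain CD25. They were taken as the array probe sets annotated with exactly 1 gene symbol, that symbol being a member's. Each of the 4 had 1 such probe set and 0 shared with other genes, so no choice between probe sets was needed. They are 4 of 19938 genes with a probe set, and all 4 were among the 13956 genes that passed the filter on dim signals. RNA was hybridised to 4 Affymetrix arrays, 2 for each genotype. The CYLD KO mice had the genotype Cyld fl/fl Foxp3-yfp-cre, and the WT controls were Cyld+/+ Foxp3-yfp-cre. Both genotypes carried the Foxp3-yfp-cre allele, which makes yellow fluorescent protein (YFP) and Cre recombinase where Foxp3 is expressed, so Cyld was removed in Foxp3-expressing cells and not in the whole animal. Both were C57Bl6 mice of 6 to 8 weeks, and the Treg cells were sorted on YFP. The labels name the tissue as spleen with lymph nodes in one place and as spleen in another. Nothing in the labels says that the 2 samples of a genotype came from separate mice, so p-values measure the spread between these samples, which may be technical between the WT samples. The 2 CYLD KO samples differed from each other in sex-linked genes, as given with the checks of the cells.

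Treg cells, a CD4 lineage set by the transcription factor Foxp3, restrain other immune cells. CYLD is a deubiquitinase that trims ubiquitin chains from signalling complexes and so limits NF-kB activation. GPR83 is a G protein-coupled receptor found in the brain and on Treg cells. Izumo1r encodes the protein called folate receptor 4 or JUNO, the egg receptor for the sperm protein IZUMO1, which also marks Treg and anergic CD4 T cells in mice. NRP1 (neuropilin-1) is a co-receptor for semaphorins and vascular endothelial growth factors and is used in mice as a marker of Treg cells that arose in the thymus. Lrrc32 encodes GARP, which holds latent TGF-beta on the Treg surface until integrins release it. The arrays measured the transcripts of these genes, not the proteins on the cell surface.

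The cells expressed genes of Treg cells and of CD4 T cells in general. Of 8 such markers, 0 passed the test in either direction. At an unadjusted p under 0.05, 1 was lower (limma), while 1424 of the 13956 tested genes were lower and 1364 higher. Cd3e, a chain of the T cell receptor complex, read 3615 and 2978 in the CYLD KO and 3240 and 3264 in WT, and Cd4 read 2169 and 1974 in the CYLD KO and 2033 and 1818 in WT. Foxp3 read 1697 and 1553 in the CYLD KO and 2016 and 1881 in WT, and Ctla4, an inhibitory receptor, 1671 and 1250 in the CYLD KO and 1731 and 1663 in WT. Il2ra, which encodes CD25, read 1914 and 1810 in the CYLD KO and 2579 and 2499 in WT (log2 fold change -0.45, limma adjusted p = 0.0831). Cyld itself was lower in the CYLD KO, at 284 and 218, against 524 and 502 in WT (log2 fold change -1.04 ± 0.17, SE, limma adjusted p = 8.89e-08). Which part of Cyld was floxed is not in the labels, and this probe set may lie outside it. Array medians lay between 99.0 and 105. CYLD KO replicate 2 stood apart in sex-linked genes: Y-linked Kdm5d, Eif2s3y and Uty read 127, 98.9 and 132 there, against 268, 221 and 283 on KO replicate 1 and 219 to 275 on the WT arrays. Xist read 1630 and 2321 in the CYLD KO and 1306 and 1403 in WT. Xist was called higher in the CYLD KO (limma adjusted p = 0.0291) and Kdm5d and Eif2s3y lower (0.0160 and 0.00242), while Uty did not pass (0.545), so the mix of sexes and the genotype cannot be told apart here. Of 13 tested macrophage markers 12 were lower in the CYLD KO and 0 higher, against 3.50% and 4.79% of all tested genes. Their intensities over all 15 listed genes summed to 1342 and 1659 in the CYLD KO and 3248 and 3023 in WT. Those with the highest intensities were Vcam1, at 285 and 327 in the CYLD KO and 683 and 710 in WT, Sirpa, at 110 and 181 in the CYLD KO and 401 and 403 in WT, and Cd68, at 127 and 173 in the CYLD KO and 224 and 202 in WT.

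Gpr83 was the marker that changed most, to 25.4% of its WT signal, and Izumo1r fell to 67.5%. Nrp1 and Lrrc32 did not pass the test, the first reading higher and the second lower in the CYLD KO. Of the 4 genes, 2 were thus called at a limma adjusted p under 0.05, against 8.29% of all tested genes, and both were lower, a call made for 3.50% of all tested genes, while 4.79% were called higher. In sorted bulk samples, fewer cells carrying a transcript and less of it in each cell cannot be told apart.

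Gpr83 (probe set 10583286) read 315 and 413 on the CYLD KO arrays and 1457 and 1408 on the WT arrays. The groups were far apart, with the closest KO and WT arrays still differing by 1.77 on the log2 scale and the farthest by 2.21. The 2 KO arrays lay 0.39 apart and the 2 WT arrays 0.05 apart. The mean was 364 ± 69.4 in the CYLD KO and 1432 ± 34.3 in WT (SD, n = 2 each). This is a log2 fold change of -1.99 ± 0.17 (SE; 95% interval -2.32 to -1.65; limma adjusted p = 9.95e-29). This was the largest fall among the 13956 genes tested. Over all tested genes, 2 had CYLD KO arrays as far below the WT arrays as Gpr83 did, counting Gpr83 itself.

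Izumo1r (probe set 10590974) read 1557 and 1618 on the CYLD KO arrays and 2476 and 2224 on the WT arrays. Both KO arrays were below both WT arrays, the closest pair 0.46 apart on the log2 scale, while replicates differed by 0.06 in the CYLD KO and 0.15 in WT. The mean was 1588 ± 43.5 in the CYLD KO and 2350 ± 178 in WT (SD, n = 2 each). On the log2 scale Izumo1r changed by -0.56 ± 0.17 (SE; 95% interval -0.90 to -0.23; limma adjusted p = 0.0152). Of all tested genes, 2.03% had KO arrays at least as far below the WT arrays. The fall stood at -0.49 without WT replicate 1 and -0.64 without WT replicate 2, where it no longer passed (limma adjusted p = 0.431 and 0.128).

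Nrp1 (probe set 10576639) read 1252 and 1154 on the CYLD KO arrays and 1063 and 896 on the WT arrays. The KO arrays were higher than the WT arrays without overlap, but the closest pair was 0.12 apart on the log2 scale, less than the 0.25 between the WT replicates. The mean was 1203 ± 69.7 in the CYLD KO and 979 ± 119 in WT (SD, n = 2 each). The log2 fold change of 0.30 ± 0.17 (SE) did not pass (limma adjusted p = 0.315). Its 95% interval, -0.03 to 0.63, holds no fall as large as that of Izumo1r.

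Lrrc32 (probe set 10555174) read 833 and 1035 on the CYLD KO arrays and 1266 and 1093 on the WT arrays. Its groups came within 0.08 of each other on the log2 scale, with replicates 0.31 apart in the CYLD KO and 0.21 apart in WT. The mean was 934 ± 142 in the CYLD KO and 1180 ± 123 in WT (SD, n = 2 each). The log2 fold change of -0.34 ± 0.17 (SE; 95% interval -0.67 to -0.01) had an unadjusted p = 0.0442 and did not pass after adjustment over all genes (limma adjusted p = 0.235). A fall as large as that of Izumo1r lies inside this interval. Non-overlap of this kind was common: both KO arrays lay below both WT arrays for 26.2% of tested genes and above them for 22.5%, against 3 and 1 of these 4 genes.

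**Figure D1:**
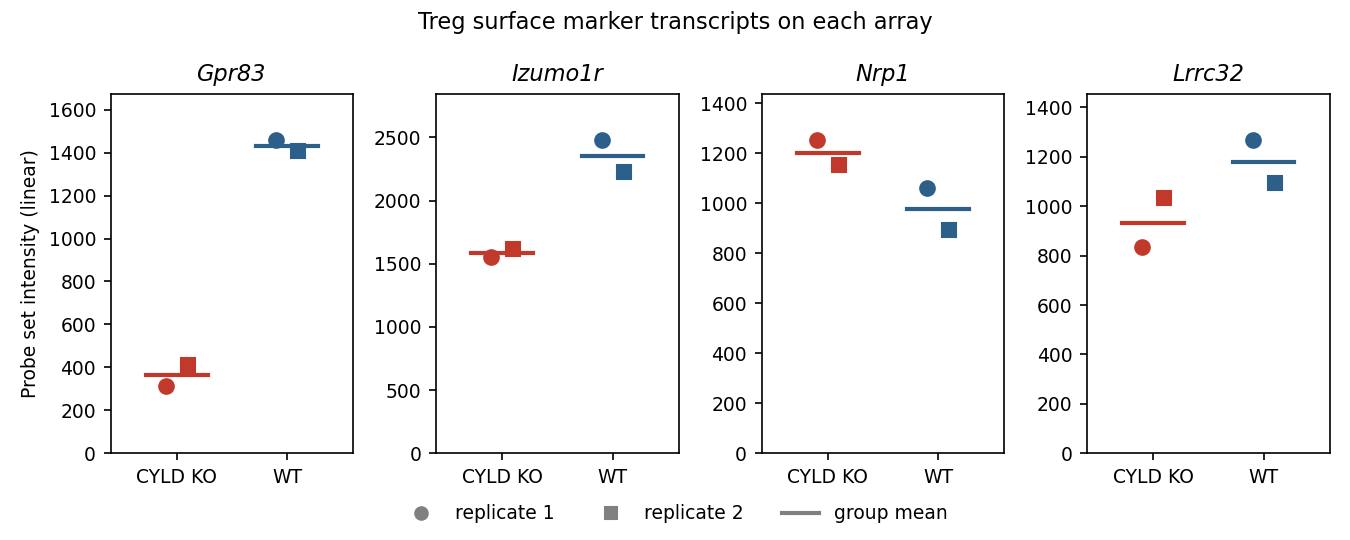
Probe set intensity (linear scale, each panel from 0) of the 4 markers on the 2 CYLD KO and 2 WT arrays. Points are arrays, with the shape giving the replicate, and bars are group means. Gpr83 sits at 315 and 413 in the CYLD KO against 1457 and 1408 in WT, while the Nrp1 and Lrrc32 groups come close to each other.

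**Figure D2:**
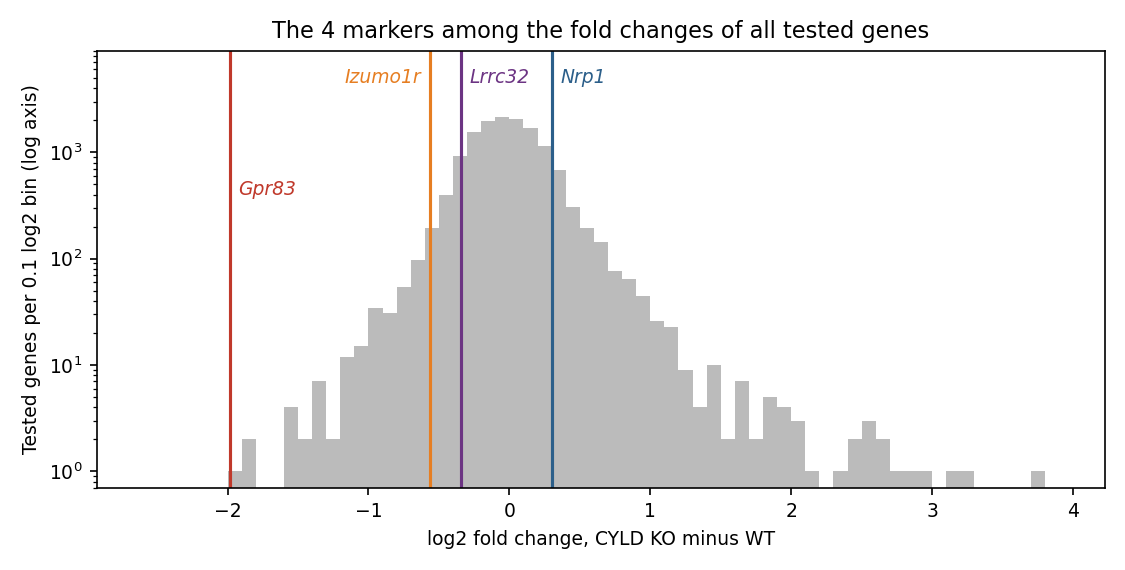
Histogram of the log2 fold change, CYLD KO minus WT, of the 13956 tested genes with the number of genes per bin on a log axis and lines at the 4 markers. Gpr83 stands at the far left end at -1.99, Izumo1r at -0.56, Lrrc32 at -0.34 and Nrp1 at 0.30.

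Since a marker past the threshold beside one short of it does not show that the 2 differ, the changes were compared directly in all 6 pairs. The Gpr83 change was larger than each of the others. Its difference from the Izumo1r change was -1.42 ± 0.24 on the log2 scale (SE; 95% interval -1.89 to -0.95). It differed from the Lrrc32 change by -1.64 (-2.11 to -1.17) and from the Nrp1 change by -2.29 (-2.76 to -1.82). The intervals treat the errors of 2 probe sets as independent. On the CYLD KO arrays the log2 ratio of Gpr83 to Izumo1r, set to a WT mean of 0, was -1.59 and -1.25, and on the WT arrays it was -0.05 and 0.05. With quantile normalization the difference between these 2 changes was -1.48.

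Izumo1r and Nrp1 also moved apart, by -0.86 (95% interval -1.33 to -0.39), their log2 ratio being -0.95 and -0.78 on the CYLD KO arrays and -0.05 and 0.05 on the WT arrays. The changes of Nrp1 and Lrrc32 were 0.64 apart (0.17 to 1.11), but their log2 ratio varied between the CYLD KO arrays, at 0.86 and 0.43, against 0.02 and -0.02 on the WT arrays. Without KO replicate 1 that difference was 0.43 (95% interval -0.07 to 0.92) and without WT replicate 2 it was 0.62 (-0.02 to 1.27), so without either array the interval held 0. A difference between the changes of Izumo1r and Lrrc32 was not shown, at -0.22 (-0.69 to 0.25), an interval that also holds sizeable differences in the negative direction. With 2 arrays against 2, the exact two-sided permutation test gave p = 0.333 for every pair, the smallest it can give, and 0.333 after adjustment over the 6 pairs.

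Gpr83 and Izumo1r, the 2 markers that fell, lie next to each other on chromosome 9. In the RefSeq gene table of GRCm38.p6 no gene is annotated between them, and they are transcribed towards each other. Of 3 other tested genes among the nearest 5 on either side, 0 passed in limma. At an unadjusted p under 0.05, 1424 of all 13956 tested genes were lower, and 1 of these 3 was. That gene, Ankrd49, read 111 and 105 in the CYLD KO and 142 and 142 in WT (log2 fold change -0.39, 95% interval -0.72 to -0.06, unadjusted p = 0.0208, limma adjusted p = 0.153). Mre11a, which encodes a DNA repair nuclease, read 224 and 183 in the CYLD KO and 265 and 217 in WT (log2 fold change -0.24, limma adjusted p = 0.444). Panx1, a membrane channel on the Izumo1r side, read 368 and 421 in the CYLD KO and 448 and 450 in WT (log2 fold change -0.19, limma adjusted p = 0.574). All 3 fold changes were negative, and each was smaller than those of the 2 markers between these genes.

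Beside Nrp1 on chromosome 8, Itgb1, the integrin beta 1 chain, was the one tested gene among the 10 nearest, and it rose. It read 1689 and 1416 in the CYLD KO and 1000 and 1040 in WT (log2 fold change 0.60 ± 0.17, SE, limma adjusted p = 0.00796). Without WT replicate 1 its log2 fold change was 0.57 and its adjusted p was 0.248, without WT replicate 2 these were 0.63 and 0.143, and without KO replicate 1 they were 0.47 and 0.0630. Beside Lrrc32 on chromosome 7, 2 genes were tested and 0 passed, with 1 lower at an unadjusted p under 0.05: Emsy read 466 and 399 in the CYLD KO and 580 and 528 in WT (log2 fold change -0.36), and Gucy2d 103 and 83.0 in the CYLD KO and 80.2 and 101 in WT (0.04).

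**Figure D3:**
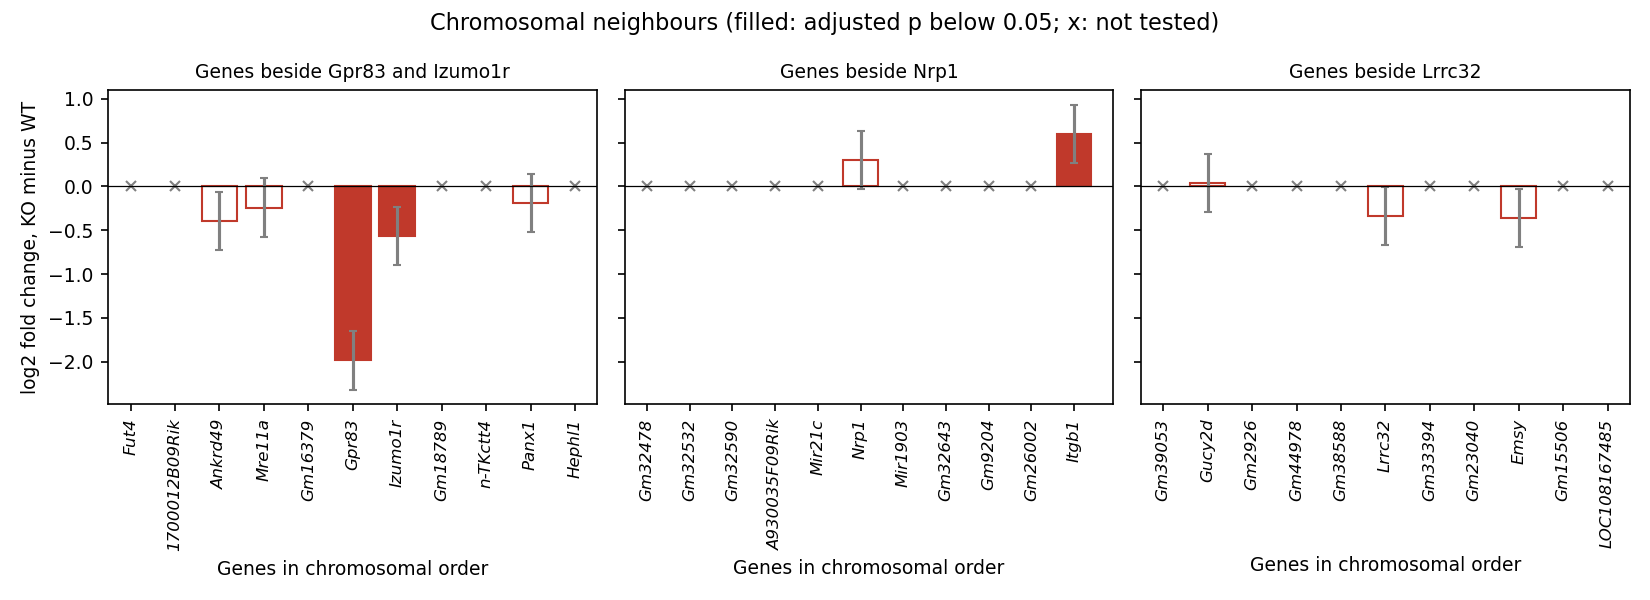
Change on the log2 scale, CYLD KO minus WT, of each marker and its 5 nearest annotated genes on either side, in chromosomal order. Bars with 95% intervals are tested genes, filled where the limma adjusted p was below 0.05, and crosses are genes not tested. Gpr83 and Izumo1r stand side by side as the filled bars of the left panel, and Itgb1 is the filled bar in the panel of Nrp1.

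Promoter sequence was held by the RefSeq table for 3 of the 4 markers. The 250 bases before the annotated start are shown for the 2 neighbouring genes because both were called lower, though by different amounts. They run from chr9:14859960-14860209 on the plus strand for Gpr83 and chr9:14903768-14904017 on the minus strand for Izumo1r (GRCm38.p6). Capitals mark a match to a searched motif, on either strand.
Gpr83: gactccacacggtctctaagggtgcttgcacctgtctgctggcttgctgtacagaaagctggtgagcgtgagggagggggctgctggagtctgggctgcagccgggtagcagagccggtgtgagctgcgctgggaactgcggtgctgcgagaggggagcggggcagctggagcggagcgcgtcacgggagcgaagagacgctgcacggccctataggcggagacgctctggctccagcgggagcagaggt
Izumo1r: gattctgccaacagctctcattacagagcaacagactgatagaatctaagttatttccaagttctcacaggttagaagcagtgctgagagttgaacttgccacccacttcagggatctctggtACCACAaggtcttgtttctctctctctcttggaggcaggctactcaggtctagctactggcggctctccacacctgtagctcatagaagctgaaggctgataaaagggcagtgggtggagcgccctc

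The 2 windows differ in base composition, with 66.8% G or C in Gpr83 and 50.0% in Izumo1r. They were searched on both strands for GGG and CC with any 5 bases between them (NF-kB), TGTTTAC (forkhead factors such as Foxp3), TGANTCA (AP-1) and TGTGGT (Runx). The Gpr83 window held 0 matches. The Izumo1r window held 1, ACCACA, the Runx letters read from the opposite strand, starting 127 bases before the start. The Nrp1 window held 2 overlapping matches to the NF-kB letters. Such matches are common: of 32851 promoter windows of this length in the table, 45.8% held the NF-kB letters, 14.0% the Runx letters, 6.75% the AP-1 letters and 3.17% the forkhead letters. The Gpr83, Izumo1r and Nrp1 windows each held matches to no more than 1 of the motifs. A match describes the letters and not a bound site.

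Gpr83 was lower under each way of processing that was tried. Under 14 alternatives its log2 fold change ran from -2.18, without KO replicate 2, to -1.79, without KO replicate 1. In the 13 that share a variance over genes, its limma adjusted p was at most 2.90e-14. These p-values rest on that shared variance: limma estimated infinite prior degrees of freedom, which gave every gene the same SE of 0.17. When each gene was given its own variance from 2 residual degrees of freedom, Gpr83 had an unadjusted p = 0.00967 and Izumo1r one of 0.0206, and with adjusted p = 0.273 and 0.313 neither passed, nor did any other gene.

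**Figure D4:**
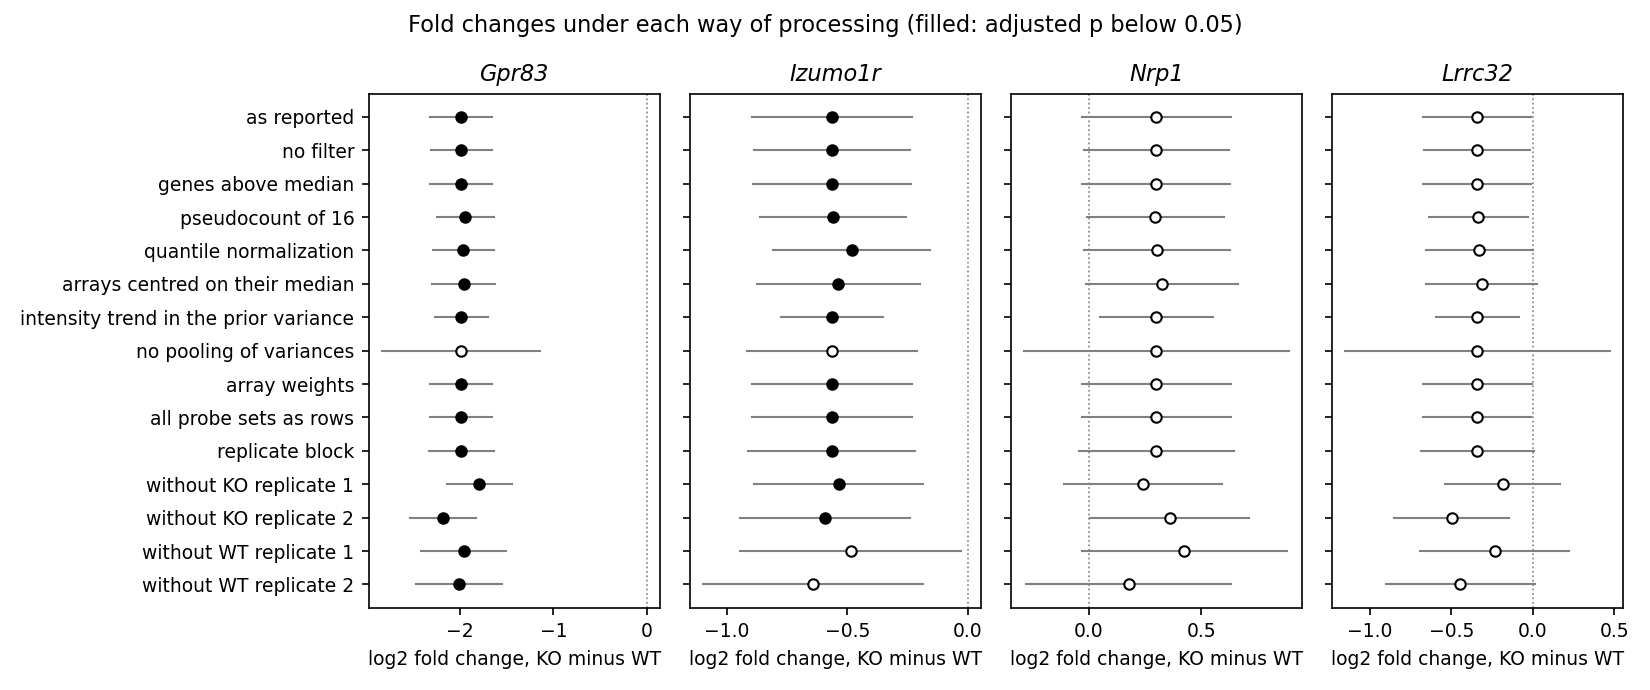
The log2 fold change, CYLD KO minus WT, of each marker with its 95% interval as reported and under 14 alternative ways of processing, with filled points where the adjusted p was below 0.05. Gpr83 stays between -2.18 and -1.79. Izumo1r is negative throughout but open, meaning not past the threshold, without either WT array and with no pooling of variances.

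The genes whose pattern over the 4 arrays was most like that of Gpr83 were Sh3bgrl2, Flicr and Usp18. Likeness was measured as the Euclidean distance between log2 values, each gene centred on its own mean. Sh3bgrl2 lay at a distance of 0.34, reading 79.1 and 75.7 in the CYLD KO and 295 and 282 in WT. Flicr, a long noncoding RNA transcribed beside Foxp3, lay at 0.38, with 141 and 131 in the CYLD KO and 508 and 475 in WT. Usp18, an ISG15 protease that damps interferon responses, lay at 0.50, with 215 and 347 in the CYLD KO and 802 and 787 in WT. No gene came within 0.25 of Gpr83, whereas 750 did so for Izumo1r, 1204 for Nrp1 and 946 for Lrrc32. The values were centred but not scaled, so these counts depend on how large each marker's change was. The nearest to Izumo1r were Lats2, Pitpnm2 and Fam78a, at 0.02 to 0.03. The nearest to Nrp1 were Ctsz, Fbrs and Slc12a4, and to Lrrc32 Ddx18, Emg1 and Hgh1. With 4 arrays, such likeness is a description and nothing more.

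Around GPR83, the 4 tested genes of the list of ligands, peptide processing and related receptors were Pcsk1n, Procr, Gpr171 and Gpr37, and none passed. The peptide processing genes Pcsk1 and Cpe were below the filter, so their change was not tested. Of 13 listed genes 9 had a probe set and 4 were tested, with 0 called and 0 at an unadjusted p under 0.05 in limma. Pcsk1n, the precursor of the peptide PEN, which binds GPR83 in the mouse brain, read 174 and 150 in the CYLD KO and 144 and 195 in WT. Gpr171, the receptor of another peptide from the same precursor, read 422 and 476 in the CYLD KO and 397 and 345 in WT (log2 fold change 0.28, limma adjusted p = 0.366). The median over the 4 was 0.03, beside -0.02 over all tested genes. Counts of this and the following lists stand beside 4.79% of all tested genes called higher and 3.50% called lower. Those at an unadjusted p under 0.05 stand beside 1364 higher and 1424 lower of the 13956 tested genes.

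No other folate receptor or transporter gene that was tested passed. Folr1 read 105 and 118 in the CYLD KO and 89.6 and 124 in WT, and Slc19a1, the reduced folate carrier, 255 and 315 in the CYLD KO and 378 and 364 in WT (log2 fold change -0.39, limma adjusted p = 0.162). Folr2 and the ligand gene Izumo1 were below the filter. Of 11 tested genes of folate handling 2 were higher and 0 lower, with 3 lower at an unadjusted p under 0.05, and the median was -0.03. The higher ones were Tyms, thymidylate synthase, at 245 and 340 in the CYLD KO and 200 and 174 in WT (log2 fold change 0.62, limma adjusted p = 0.00541), and Ggh, gamma-glutamyl hydrolase, at 187 and 254 in the CYLD KO and 162 and 143 in WT (0.52, 0.0325). Both were highest on KO replicate 2, where the proliferation marker Mki67 also read highest, at 787 against 638 on KO replicate 1 and 364 and 287 in WT. Without KO replicate 2, neither passed (adjusted p = 0.224 and 0.395), 0 genes of the list were higher and 2 were lower. Without either WT array 0 were called.

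Among ligands and partners of NRP1, 1 of 16 tested genes was higher and 2 were lower, with a median of -0.08. Sema4a, a semaphorin that binds NRP1 on mouse Treg cells, fell to 156 and 212 in the CYLD KO, against 293 and 272 in WT (log2 fold change -0.63, limma adjusted p = 0.00436). Plxnd1, a semaphorin receptor that can pair with neuropilins, rose to 382 and 406 in the CYLD KO, against 264 and 247 in WT (0.62, 0.00519). Plxna1, another plexin, fell to 186 and 172 in the CYLD KO, against 248 and 257 in WT (-0.49, 0.0461), and its adjusted p lay between 0.0508 and 0.0763 with no filter, 2 other scalings, an intensity trend or the replicate block. Nrp2, the neuropilin related to NRP1, read 70.5 and 80.1 in the CYLD KO and 113 and 89.8 in WT and did not pass (limma adjusted p = 0.120). Without either WT array 0 of the 16 were called, and without KO replicate 1 the Sema4a log2 fold change was -0.42 (adjusted p = 0.107). Sema4a moved in the direction of the macrophage markers given above, and their part in its fall was not tested.

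Tgfb1, which encodes the latent TGF-beta that GARP holds, did not pass the test, while 2 integrin genes rose. It read 1427 and 1602 in the CYLD KO and 1373 and 1353 in WT (log2 fold change 0.15, 95% interval -0.18 to 0.48, limma adjusted p = 0.673). Of 21 tested genes 2 were higher and 0 lower, with 2 lower at an unadjusted p under 0.05, and the median was -0.05. Itgb8, the chain that with the alpha V integrin releases TGF-beta from GARP, rose to 668 and 483 in the CYLD KO, against 334 and 318 in WT (0.80, limma adjusted p = 1.03e-04). Itgb1 is described above. Itgav, the alpha V chain, read 1110 and 921 in the CYLD KO and 798 and 757 in WT and did not pass (0.38, 0.173). Nrros, which encodes the GARP relative that holds latent TGF-beta on myeloid cells, read 173 and 158 in the CYLD KO and 215 and 168 in WT (adjusted p = 0.548). Without KO replicate 1 or either WT array, 1 of the 21 was higher.

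Of the other surface markers that passed, most were higher in the CYLD KO, where Gpr83 and Izumo1r were lower. Of 27 tested, 10 were higher and 1 lower, against 4.79% and 3.50% of all tested genes. The median log2 fold change was 0.35, beside -0.02 over all tested genes. These lists were chosen with earlier results of these data known. Itgae, Havcr2, Ccr8 and Ccr6, found on effector or tissue Treg cells, rose by 1.21, 1.20, 1.18 and 1.18 on the log2 scale (limma adjusted p at most 5.51e-10), and the lymph node homing receptor gene Ccr7 fell by 0.99 on that scale (5.18e-07). Without either WT array 6 were higher and 1 lower. Among 29 transcription factor genes of Treg cells 3 were higher and 7 lower, with a median of -0.17. Satb1, Bach2, Foxp1 and Id3, known from resting T cells, fell by 0.92, 0.87, 0.80 and 0.75, and Prdm1, the Blimp-1 gene of effector cells, rose by 0.83 (limma adjusted p at most 3.27e-04). Ikzf2, the Helios gene, which like Nrp1 is used to mark thymic Treg cells, read 1516 and 1160 in the CYLD KO and 1059 and 1064 in WT and did not pass (0.32, 0.273). Without WT replicate 1 this list had 1 higher and 3 lower, and without WT replicate 2 it had 0 higher and 4 lower.

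**Figure D5:**
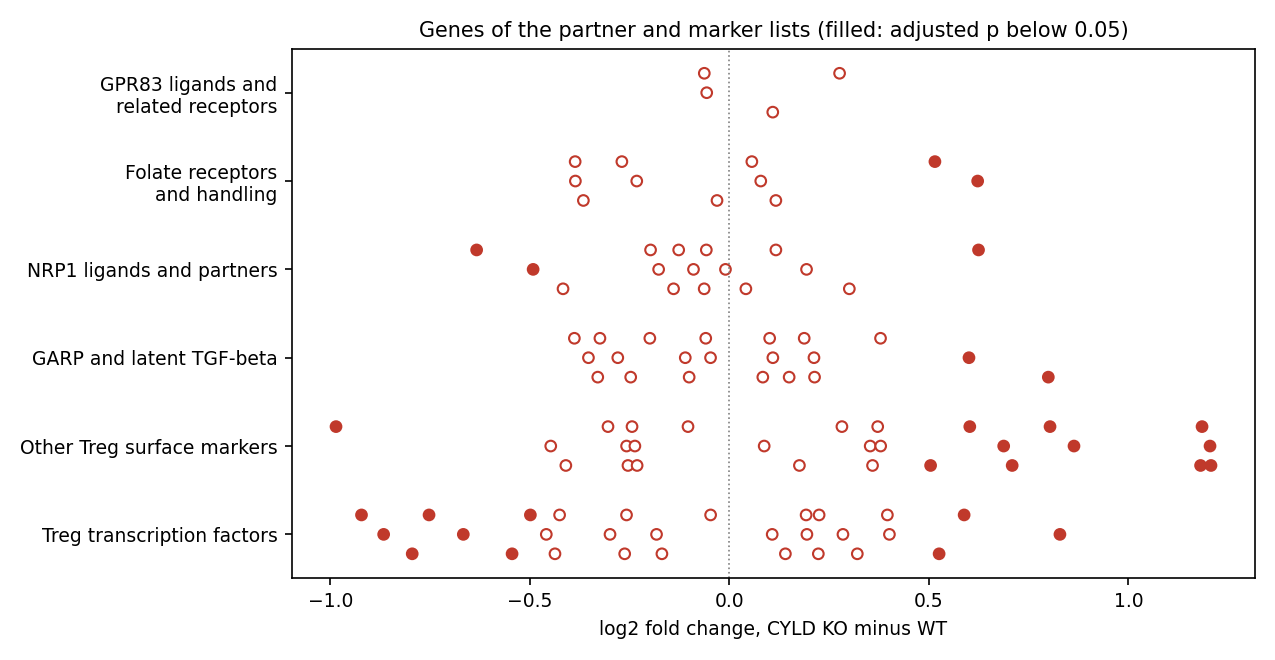
Change on the log2 scale, CYLD KO minus WT, of each tested gene in the lists of partners of the 4 markers, of other Treg surface markers and of Treg transcription factors. Points are genes, spread vertically for legibility and filled where the limma adjusted p was below 0.05. The surface marker row has 10 filled points to the right of 0 and 1 to the left, and the row of transcription factors 3 and 7.

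Cells other than Treg cells can carry some of these transcripts, so their markers were read beside them. NRP1 is also made by plasmacytoid dendritic cells, macrophages and endothelium, and GARP by platelets and endothelium. Of 8 tested dendritic cell markers 0 passed, with 1 lower at an unadjusted p under 0.05, and their summed intensity was 1691 and 1779 in the CYLD KO and 1689 and 1653 in WT. The brightest, Ccr9, Zbtb46 and Tcf4, had both KO arrays above both WT arrays. They were not called (limma adjusted p = 0.855, 0.337 and 0.370). Ccr9 weighs on the sums, at 731 and 728 in the CYLD KO and 720 and 667 in WT. Siglech and Bst2 of the same list went the other way, with both KO arrays below both WT arrays. Neither was called (limma adjusted p = 0.370 and 0.218). Over all tested genes, both KO arrays lay above both WT arrays for 22.5% and below them for 26.2%. Siglech read 88.1 and 87.5 in the CYLD KO and 111 and 102 in WT. Bst2, the gene under the unadjusted threshold, read 114 and 106 in the CYLD KO and 151 and 131 in WT. The median log2 fold change of the 8 was 0.04. Of 3 tested platelet markers 0 passed and 0 had an unadjusted p under 0.05, with sums of 859 and 786 in the CYLD KO and 761 and 818 in WT, the brightest being Itgb3, Treml1 and Gp9. Of 4 tested endothelial markers 1 was lower, Pecam1, at 431 and 401 in the CYLD KO and 665 and 562 in WT (log2 fold change -0.56, limma adjusted p = 0.0174). Pecam1 was the brightest of this list and weighs on its sums, and 6 listed genes below the filter were not tested. The sums of that list were 1185 and 1068 in the CYLD KO and 1305 and 1317 in WT, and Vwf and Egfl7, its next brightest, did not pass (0.711 and 0.949). B cell markers had 0 of 5 called, with 1 lower at an unadjusted p under 0.05, and sums of 896 and 877 in the CYLD KO and 875 and 900.0 in WT, the brightest being Cd79b, Cd22 and Pax5. Of 5 CD8 T and NK cell markers 1 was higher, Eomes, which activated T cells also express, at 297 and 342 in the CYLD KO and 109 and 98.9 in WT. The sums of that list were 1276 and 1240 in the CYLD KO and 969 and 979 in WT, and Cd8b1 and Prf1 did not pass (limma adjusted p = 0.491 and 0.954). The macrophage markers moved down together with Gpr83 and Izumo1r and opposite to Nrp1, and their part in these changes was not tested. The signals carry a background, the lowest intensity on any array being 26.6, so no gene could be called absent and no marker read 0.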

How the data were processed

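Sorted YFP-positive Treg cells of CYLD KO and WT mice were measured on 2 arrays each. Per the labels' protocols, total RNA was extracted with a column kit and biotinylated cRNA prepared the usual Affymetrix way. Each probe set has 1 deposited intensity per array, on a scale that the values show to be linear. Their summarisation, background correction and scaling are not given in the sources used here. Of 35557 probe sets, 21789 had exactly 1 gene symbol in the platform annotation, 1621 several and 12147 none listed.

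Intensities were converted to log2(value + 1), so fold changes are on that scale. With the lowest intensity at 26.6, adding 1 understates changes of dim genes only slightly, while the background in the signals may understate them more. Each of 19938 genes was represented by its brightest probe set on average, and the 13956 above the 30th percentile were tested with limma 3.58.1 in R 4.3.3 (lmFit, eBayes, Benjamini-Hochberg adjustment over all of them, threshold 0.05, 95% intervals). The scripts were checked on simulated data. The number of arrays limits the precision. Differences between 2 members' changes used both moderated standard errors and an exact permutation test. Lists are described by counts and medians, without a list test. Named genes are the markers, Cyld, for each marker the 3 genes nearest in pattern, up to 5 called genes of each list, Foxp3, Il2ra, Ikzf2 and Ctla4, called neighbours and the 3 brightest of each cell type list. Other neighbours and partners, and Siglech and Bst2, were named after their values were seen. The members and lists were chosen with earlier results of these data known.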

Additional observations from a re-analysis of the deposited data

How the results depend on the processing

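The direction of all 4 markers was kept under the 14 alternatives tried, which changed the filter, pseudocount, scaling, variance model, array weights, probe set handling or replicate block or left out 1 array. Nrp1 ran from 0.18 to 0.42 and Lrrc32 from -0.50 to -0.19 on the log2 scale, and neither passed in any. With no pooling of variances, Gpr83 (-1.99) and Izumo1r (-0.56) no longer passed, and 0 genes were higher and 0 lower, with 842 and 971 at an unadjusted p under 0.05. That fit has 2 residual degrees of freedom for each gene. Leaving out 1 array gave Gpr83 -2.18 to -1.79, Izumo1r -0.64 to -0.49, Nrp1 0.18 to 0.42 and Lrrc32 -0.50 to -0.19. It gave 254 to 919 higher genes, against 669 from all arrays, and 118 to 767 lower genes, against 488. Higher genes numbered 289 and 254 without WT replicates 1 and 2, and lower genes 118 and 181, where the lone WT array was assumed to vary like the KO pair. Lower genes numbered 767 without KO replicate 1. The replicate numbers do not pair the samples by any label, and same-numbered arrays did not deviate together (correlation across genes -0.09). With the replicate block, 603 genes were higher and 428 lower, Gpr83 kept -1.99 and Izumo1r -0.56 (limma adjusted p = 0.0248), and none of the 4 markers changed its call.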
